A study of Mus musculus with 16 samples.

Results

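Abcb4, the gene inactivated in this mouse model and also called Mdr2, lies on chromosome 5 beside Abcb1a and Abcb1b, and all 3 genes run on the plus strand. Acetylation of histone H3 at lysine 27 (H3K27Ac), a mark of active promoters and enhancers, was read across them in 15 peak lists, each from a different animal. All peaks in the mm9 window chr5:8640000-8980000, 340 kb long, were taken. Overlapping peaks of the 15 lists merged into 21 regions of the window, out of 56941 in the genome. Of the 21 regions, 14 had a peak in at least 2 animals and 7 in 1 animal. The gene positions are rounded to 1000 bp, and no mm9 annotation was used here, so exons, introns and untranslated regions are not named.

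The WT livers came from 5 mice of strain FVB.129P2 by the sample records, aged 14 to 19 months. The study's methods name FVB/NJ as the strain of the WT founders. The inflamed livers came from 5 FVB.129P2-Abcb4tm1Bor/J mice (Mdr2-/-) aged 7 to 8 months, and the HCC nodules, which are hepatocellular carcinomas, from 5 mice of that strain aged 14 to 19 months. The allele is a full knockout carried in every cell, so both Mdr2-/- groups share it, and both sexes were used in the study. All 15 animals had received clodronate liposomes, which deplete macrophages, at 50 μg per g of body weight for 48 h. Genotype goes with age and with inflammation between WT and inflamed livers, and disease stage goes with age between inflamed livers and nodules. Between WT livers and nodules, which share an age range, genotype goes with tumour tissue. Within each comparison these cannot be told apart. Each library holds whole tissue, so that fewer cells of a type and less acetylation per cell cannot be told apart either. Marker genes of liver cell types and a WT control sample, titled Input, were not analysed here.

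ABCB4 is a canalicular transporter of hepatocytes that moves phosphatidylcholine to the outer leaflet of the membrane, from which bile salts take it up into bile. Without it bile salts are not packed into mixed micelles and injure the bile ducts, and mice that lack it develop cholangitis, fibrosis and later liver tumours. Abcb1a and Abcb1b encode the rodent forms of P-glycoprotein, also called Mdr3 and Mdr1, which expel many hydrophobic drugs and toxins from cells.

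Lists held between 26390 and 42736 peaks, with a score that the peak caller gave each of them. WT lists covered 109 to 148 Mb, lists of inflamed livers 138 to 160 Mb and lists of nodules 92.5 to 175 Mb. Read depth is unknown, so that a missing peak means that none was called, not that acetylation was absent. In the window, WT animal 130748 and HCC animal 124711 had the shortest length under peaks of all 15, 13326 and 14048 bp. HCC animals 125278 and 123390 had the longest, 103683 and 112584 bp. Results that rest on these animals are given with and without them. Over their whole lists WT animal 130748 and HCC animal 124711 also had the least under peaks of their groups, 109 and 92.5 Mb. The study left some of the 15 samples out of its principal component plot of H3K27Ac as outliers and does not name them. The comparisons of inflamed livers and of nodules with WT livers share the 5 WT animals. With 5 animals against 5 the smallest two-sided exact permutation p is 0.00794.

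RefSeq holds the 250 bases before the start of Abcb4 and of Abcb1b on build GRCm38.p6. They are shown because every animal had peaks around the rounded start of Abcb4 and because a peak at the start of Abcb1b was found mostly in Mdr2-/- tissue. Capitals mark matches to GGGCGG, the GC box, and to CCAAT on either strand, where the reverse strand reads ATTGG. The coordinates of these sequences belong to GRCm38.p6 and are not set against the mm9 peaks.
Abcb4, GRCm38.p6 chr5:8893471-8893720, plus strand: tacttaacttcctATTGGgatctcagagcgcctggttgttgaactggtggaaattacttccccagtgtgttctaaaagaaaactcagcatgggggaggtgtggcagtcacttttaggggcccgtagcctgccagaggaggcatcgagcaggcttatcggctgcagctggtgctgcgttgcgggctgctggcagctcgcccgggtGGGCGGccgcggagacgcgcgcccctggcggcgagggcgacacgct
Abcb1b, GRCm38.p6 chr5:8797897-8798146, plus strand: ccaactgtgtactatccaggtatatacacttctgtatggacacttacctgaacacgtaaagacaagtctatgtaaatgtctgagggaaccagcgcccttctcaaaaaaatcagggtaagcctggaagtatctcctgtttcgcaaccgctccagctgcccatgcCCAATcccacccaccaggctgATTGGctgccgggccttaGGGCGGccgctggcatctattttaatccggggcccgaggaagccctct

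Both sequences hold a GC box at a similar place, 46 to 41 bases before the start in Abcb4 and 48 to 43 in Abcb1b. Abcb1b holds CCAAT on the plus strand 87 to 83 bases and on the minus strand 66 to 62 bases before its start, while the 1 match of Abcb4 is on the minus strand 237 to 233 bases before. GC content was 61.6% with 18 CpG dinucleotides in Abcb4 and 52.8% with 9 in Abcb1b. Among 32851 mouse promoters, GGGCGG was found in 32.7% and CCAAT in 33.8% on either strand, so these letters are common. Neither sequence held the TATA box TATAAA, found in 12.4% of promoters on either strand. The AP-1 site TGACTCA, found in 4.46%, was not there either. Nor was the antioxidant response element TGACNNNGC, found in 10.2%, or the nuclear receptor half-site AGGTCA, found in 14.0%. The entry for Abcb1a belongs to a longer gene model and is not shown.

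**Figure D1:**
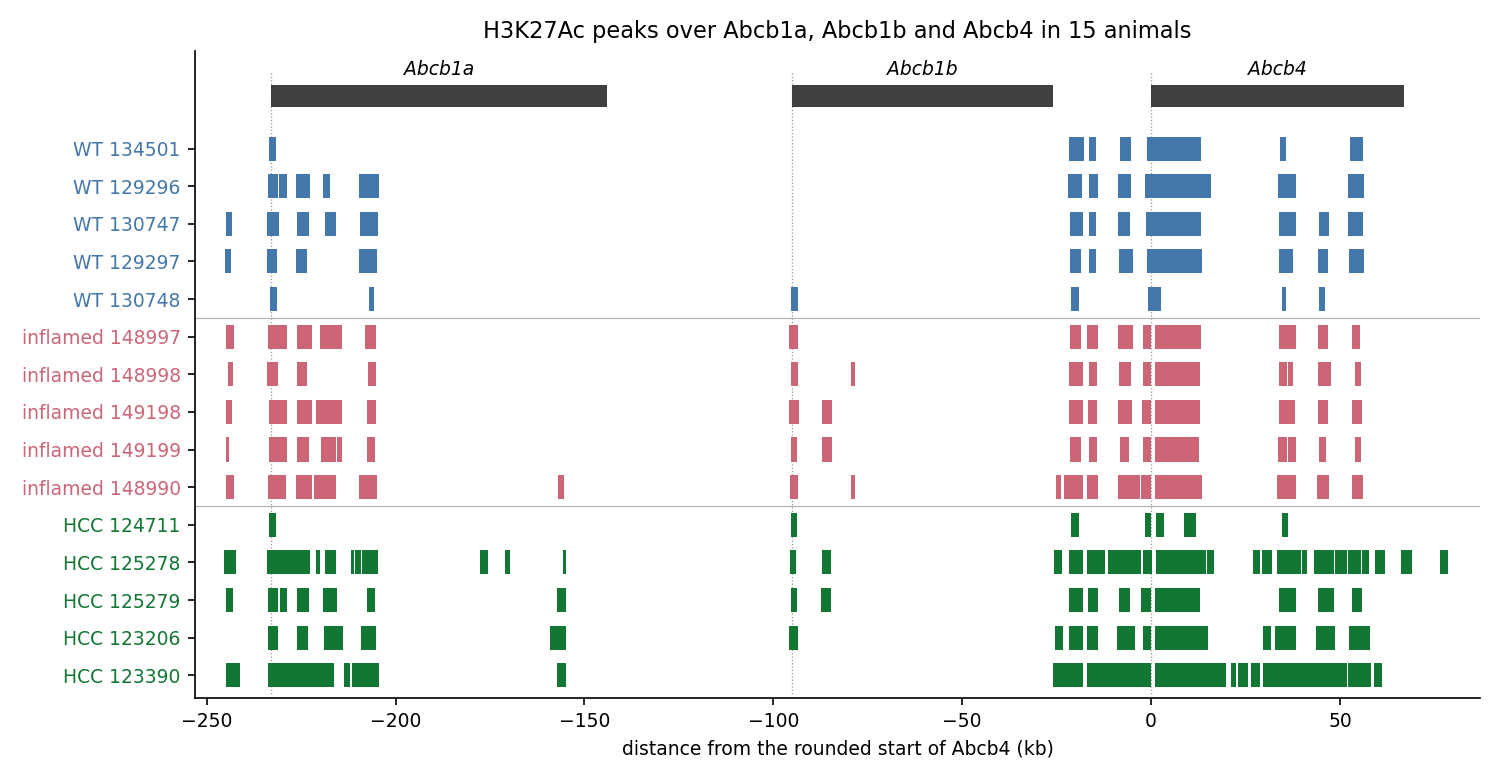
H3K27Ac peaks of each of the 15 animals (rows) against distance from the rounded start of Abcb4 in kb; dark bars are the 3 genes. Peaks crowd around the starts of Abcb1a and Abcb4 in all groups, and 1 WT liver, all 5 inflamed livers and 4 nodules have one at the start of Abcb1b.

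Around the rounded start of Abcb4, the inactivated gene itself, all 15 animals had H3K27Ac peaks, and their outline split by genotype. In the 5 WT livers 1 unbroken peak ran across the rounded start. In all 10 Mdr2-/- samples, inflamed livers and nodules alike, there were instead 2 peaks with a space between them. The stretch chr5:8893223-8894020, 798 bp long and 223 to 1020 bp past the rounded start, lay beneath a peak in 5 of 5 WT livers and beneath none in 10 of 10 Mdr2-/- samples. Because the start is rounded to 1000 bp, the true start of the gene may lie in this stretch. Whether a peak covers the true start in Mdr2-/- samples is therefore not known. This stretch was noticed in the lists and then measured, so no test is attached to it.

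The unbroken WT peak was 14187, 14758, 14785 and 14649 bp long in WT animals 134501, 129296, 130747 and 129297, and 3470 bp in 130748. In inflamed livers the left peak ended between 8892999 and 8893061, a range of 62 bp, and the right peak began between 8894120 and 8894164, a range of 44 bp. In nodules the left peak ended between 8893025 and 8893222 and the right began between 8894021 and 8894184. The ranges in nodules were 197 and 163 bp, wider than in inflamed livers. Both Mdr2-/- groups are diseased tissue, so genotype and disease cannot be told apart here.

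The space between both peaks was 1058, 1127, 1155, 1150 and 1092 bp in inflamed livers 148997, 148998, 149198, 149199 and 148990. It was 1141, 961, 1120, 933 and 1101 bp in nodules 124711, 125278, 125279, 123206 and 123390. The values of the 2 groups overlapped, with 1116 ± 41.0 bp in inflamed livers and 1051 ± 96.7 bp in nodules (SD, n = 5 each). Nodule 124711, whose coverage was otherwise thin, had the space too.

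The left peak also began farther upstream in Mdr2-/- tissue. It began 803 to 1507 bp before the rounded start in WT animals, against 2140 to 2603 bp in inflamed livers and 1575 to 16903 bp in nodules. The WT range lay below those of both Mdr2-/- groups, but narrowly for nodules, with 1507 bp in WT animal 129296 and 1575 bp in nodule 124711. The highest value belonged to nodule 123390, in which 1 peak covered the upstream side without a break. This edge was measured with the gap, after the values were seen. How many peaks of the genome shift in this way was not measured, so the shift is a description.

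**Figure D2:**
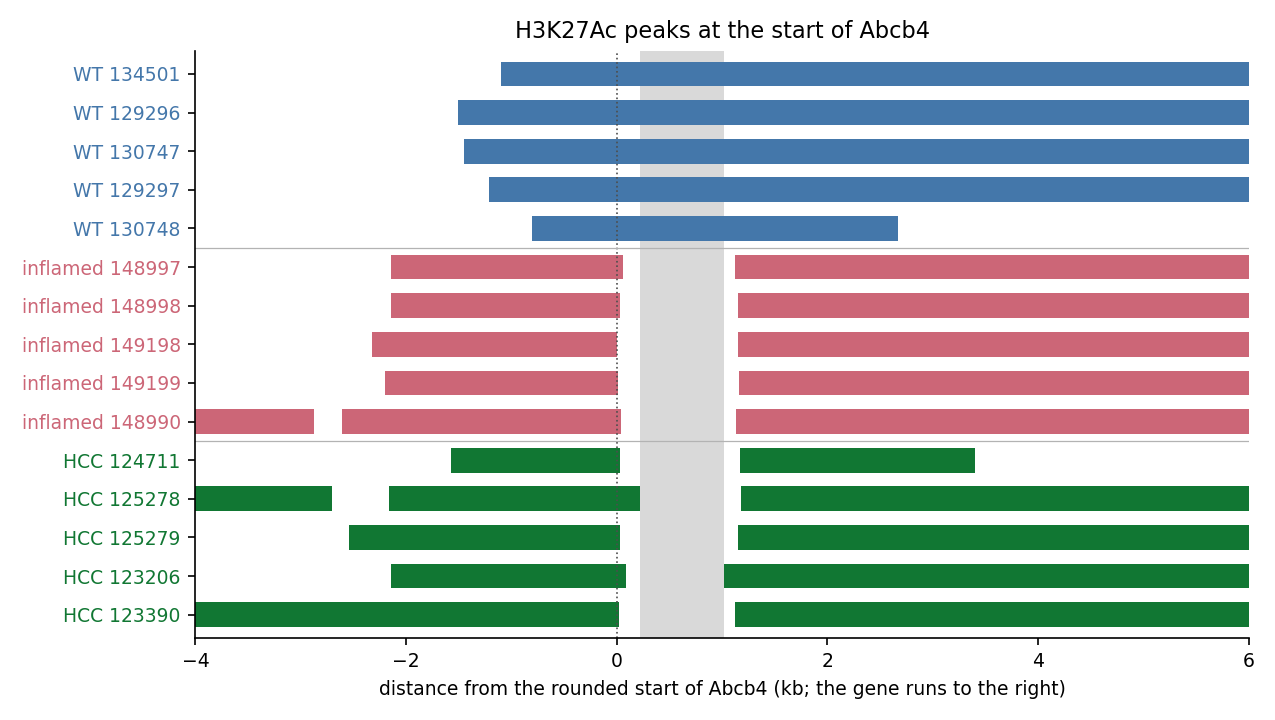
H3K27Ac peaks of the 15 animals (rows) from 4 kb before to 6 kb after the rounded start of Abcb4 (dotted line); the grey band is the 798 bp under a peak in all WT livers and in no Mdr2-/- sample. WT peaks cross the band and all 10 Mdr2-/- samples have peaks that end before it and begin after it.

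The genome was read for stretches of the same kind. There were 20903 stretches under a peak of all 5 WT livers, and of the 20548 with at least 500 bp, 0.599% held at least 500 bp that no Mdr2-/- sample had under a peak. Among the 127 pieces so found, the one at Abcb4 was the only one with peaks within 500 bp on both sides in all 10 Mdr2-/- samples. The next, on chromosome 11, had them in 7. These limits were set after the gap at Abcb4 had been seen, so it meets them by construction and its standing is a description. By length alone it was not unusual, at rank 91 of 127. Cutting the lists only removes peaks, and the WT peaks over the gap have high scores. The presence of the gap in cut lists was therefore fixed in advance. Peaks on both sides of it remained in 10 samples with lists of equal length and in 9 with the top 50% of peaks by score. Whether DNA missing from the targeted allele, donor-strain sequence linked to it or a loss of acetylation left no peak was not tested, and peak lists cannot tell them apart. A peak near the rounded start does not by itself check the genotype labels, since acetylation was called on both sides of the gap in every Mdr2-/- sample.

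Around the gap the length under H3K27Ac peaks, which does not measure the amount of acetylation, was of a similar order in the 3 groups. The Abcb4 promoter window, 2 kb on each side of the rounded start, had 3215 ± 285 bp under peaks in WT animals, against 2885 ± 41.0 bp in inflamed livers and 2865 ± 254 bp in nodules (SD, n = 5 each). The difference of inflamed livers from WT was -330 bp, at an exact permutation p of 0.0476 before adjustment and with overlapping ranges, and the 798 bp gap lies inside this window. Leaving out any 1 animal other than WT animal 130748 gave an exact permutation p of 0.0556 to 0.0794, while without that animal the difference was -432.9 bp at an exact permutation p of 0.00794. With 5 kb on each side inflamed livers had 798.2 bp more than WT (exact permutation p = 0.540). For nodules the exact permutation p was 0.929 against inflamed livers and 0.0873 against WT, and without WT animal 130748 the difference of nodules from WT was -452.7 bp at an exact permutation p of 0.0159. In all, 42 such tests were run, over 14 parts of the window and 3 comparisons, and their p-values are given unadjusted.

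The best peak in the Abcb4 promoter window ranked high in its own list, except in nodule 124711. Its score belongs to the whole peak, which reaches beyond the window. In Mdr2-/- samples it is the better of 2 peaks, where WT livers have 1, so the ranks are not fully alike. The score percentile, the share of a list with a score at or below that of the peak, was 81.5 in WT animal 134501 and 99.3 to 99.4 in the other 4 WT livers. In inflamed livers it was 99.4, 76.9, 80.8, 78.0 and 99.4 in the order given above. In 4 nodules it was 99.3 to 99.5, and in nodule 124711 it was 20.7. Each value from 99.3 to 99.5 here stands for a score of 3100, which 9.52% to 24.5% of the peaks of a list share. A score just below 3100 therefore ranks much lower, as in WT animal 134501 with 3038.97. Groups overlapped in all 3 comparisons, with exact permutation p of 0.167 for inflamed livers against WT, 0.929 for nodules against inflamed livers and 0.992 for nodules against WT. Without nodule 124711 the nodules were above rather than below inflamed livers, by 12.5 percentile points (exact permutation p = 0.127). Every nodule left held the tied score, so the size of this difference depends on how the tie is ranked.

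Over the whole Abcb4 locus, from 5 kb before the rounded start to the end of the gene, length under peaks varied most among nodules. It was 19350, 26106, 26172, 25136 and 6140 bp in WT animals 134501, 129296, 130747, 129297 and 130748. It was 23504, 22441, 23442, 21750 and 27783 bp in inflamed livers, and 8582, 49589, 25634, 34905 and 60605 bp in nodules, each in the order given above. WT livers had 20581 ± 8553 bp, inflamed livers 23784 ± 2352 bp and nodules 35863 ± 20312 bp (SD, n = 5 each), and all 3 groups overlapped.

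The Abcb4 locus did not pass the test in any comparison. The exact permutation p was 0.595 for inflamed livers against WT, 0.270 for nodules against inflamed livers and 0.183 for nodules against WT. Without nodule 124711, nodules exceeded inflamed livers by 18899 bp (exact permutation p = 0.0159) and WT livers by 22102 bp (exact permutation p = 0.0238). Without WT animal 130748 as well, the excess over WT livers was 18492 bp and no longer passed (exact permutation p = 0.0857). With only nodule 123390 left out, nodules exceeded inflamed livers by 5893.5 bp (exact permutation p = 0.5). Their excess over WT livers was then 9096.7 bp (exact permutation p = 0.349). With only nodule 125278 left out, the values were 8647.5 bp (exact permutation p = 0.492) and 11850.7 bp (exact permutation p = 0.325). These nodules had the longest length under peaks at the locus. Counted as peaks rather than bp, inflamed livers had 2.2 more peaks in the locus than WT livers (exact permutation p = 0.00794), and the gap at the start divides 1 WT peak into 2.

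Inside the gene, 3 stretches of H3K27Ac recurred after the peak at the start. The regions chr5:8922287-8941645 and chr5:8945000-8951187 held them, with a peak in 15 of 15 and 13 of 15 animals. Within the first region, the stretch chr5:8937167-8940630 had a peak in 12 of 15 animals, with 3 of 5 WT livers among them. Beside these, 3 regions at chr5:8919544-8921940, chr5:8941676-8944867 and chr5:8952064-8954802 had peaks in nodules 125278 and 123390 and in no other animal. In both nodules long peaks covered most of the second part of the gene, as the map of peaks over the window shows. Beyond the end of Abcb4 only nodule 125278 had peaks, covering 4152 bp.

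**Figure D3:**
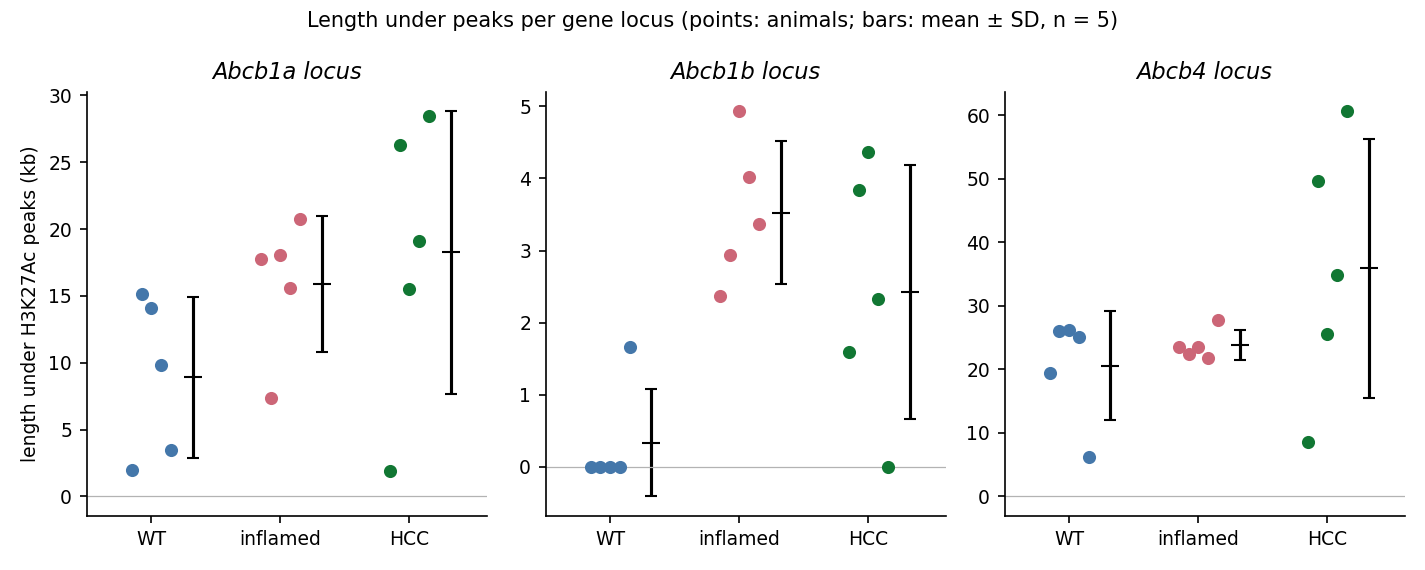
Length under H3K27Ac peaks in kb at each gene locus (gene and the 5 kb before it) for each animal, with the mean and SD (n = 5 per group); scales differ between panels, and the lower SD bar of WT at Abcb1b runs below 0 because 4 of 5 values are 0. The groups overlap at Abcb1a and Abcb4, and at Abcb1b all inflamed livers lie above all WT livers.

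Abcb1b, the P-glycoprotein gene closest to Abcb4, was the 1 locus of the 3 at which inflamed and WT livers did not overlap in length under peaks. Its locus had 0 bp under peaks in 4 WT livers and 1663 bp in WT animal 130748. Inflamed livers had 2368, 2936, 4933, 4022 and 3371 bp, in the order given above. Every inflamed liver was above every WT liver. Nodules had 1590, 3839, 4366, 2322 and 0 bp, so that 2 nodules lay in the range of inflamed livers, nodule 124711 was below WT animal 130748 and nodule 123390 had no peak.

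Inflamed livers exceeded WT livers by 3193 bp at the Abcb1b locus (exact permutation p = 0.00794). Adjusted by Benjamini-Hochberg over 19627 tiles of 70 kb and the 3 loci, the p of this exact permutation test was 0.0407. Among the tiles, 15.6% were higher in every inflamed liver than in every WT liver and 3.89% were lower, so a gain of this kind was common in the genome. Leaving out each animal in turn gave exact permutation p between 0.00794 and 0.0159. The differences of nodules from inflamed livers (-1103 bp, exact permutation p = 0.262) and from WT livers (2091 bp, exact permutation p = 0.0873) did not pass the test. The latter passed without nodule 123390 (exact permutation p = 0.0238) or without WT animal 130748 (exact permutation p = 0.0476), and not without WT animal 130748 and nodule 124711 together (exact permutation p = 0.143). Of the tiles, 1.42% were higher and 5.02% lower in nodules than in inflamed livers without overlap, and 1.39% higher and 1.11% lower in nodules than in WT livers.

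By group means, most of the length under peaks at Abcb1b lay at its start. In inflamed livers 149198 and 149199 and nodules 125278 and 125279 the body of the gene held more than the promoter window. The body had 2478, 2562, 2215 and 2794 bp there, and the promoter window 2455, 1460, 1624 and 1572 bp. The region chr5:8797139-8799727, which spans the rounded start, was marked in 1 of 5 WT animals, in 5 of 5 inflamed livers and in 4 of 5 nodules. In the promoter window inflamed livers had 2022 ± 436 bp and WT livers 333 ± 744 bp under peaks (SD, n = 5 each, exact permutation p = 0.0159), with overlapping ranges because of WT animal 130748. Nodules had 1422 ± 855 bp, between both, at an exact permutation p of 0.222 against inflamed livers and 0.167 against WT. Without nodule 123390 the exact permutation p against WT was 0.0397, and without WT animal 130748 it was 0.0476.

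The rank of the Abcb1b peak varied widely. Its score percentile was 47.8 in WT animal 130748 and between 47.0 and 75.2 in inflamed livers. In nodules 125278, 125279 and 123206 it was 49.0, 60.5 and 54.3, and in nodule 124711, at the tied score of 3100, it was 99.3. The 2 animals of thin coverage across Abcb4 thus both carried the Abcb1b peak, and in nodule 124711 it ranked above the peaks at Abcb4.

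Inside Abcb1b, 0 of 5 WT livers had peaks, against 4 of 5 inflamed livers and 2 of 5 nodules. The region chr5:8805511-8808491 had peaks in inflamed livers 149198 and 149199 and in nodules 125278 and 125279, of 2215 to 2794 bp. The region chr5:8813451-8814715 had peaks in inflamed livers 148998 and 148990 alone, of 1260 and 1220 bp. The body of the gene held 1504 ± 1057 bp in inflamed livers and 0 bp in WT livers (SD, n = 5, exact permutation p = 0.0476), with inflamed liver 148997 at 0 bp too. No animal had a peak between the promoter window of Abcb1b and the end of Abcb1a, 46999 bp.

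Abcb1a had a peak at its start in all 15 animals, and it ranked higher in Mdr2-/- tissue. The score percentile of the best peak in its promoter window was 16.7, 53.6, 50.9, 53.0 and 72.2 in the WT livers, in the order given above. It was 76.8, 79.8, 77.1, 83.2 and 73.8 in inflamed livers and 99.5, 99.4, 77.6, 75.7 and 79.9 in nodules. The 99.4 of nodule 125278 stands for the tied score of 3100. Every inflamed liver and every nodule was above every WT liver, while inflamed livers and nodules overlapped. Among the stretches of the whole genome described further on, 26.5% were above in every inflamed liver and 1.48% in every nodule, so the first of these differences was common.

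The difference at the Abcb1a start was 28.8 percentile points for inflamed livers against WT and 37.1 for nodules against WT, both at an exact permutation p of 0.00794, and 8.31 for nodules against inflamed livers (exact permutation p = 0.254). These are 3 of 6 such tests, those of the Abcb4 start included. A percentile depends on the length of the list, and the lists of inflamed livers are longer. Among the best 26375 peaks of each list the ranges overlapped, 16.7 to 69.6 in WT livers, 64.3 to 75.2 in inflamed livers and 63.7 to 99.5 in nodules. The differences were then 22.1 points for inflamed livers against WT (exact permutation p = 0.0317) and 36.4 for nodules against WT (exact permutation p = 0.0159).

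The length under peaks at Abcb1a did not part the groups. The locus had 1946, 15151, 14087, 9867 and 3443 bp under peaks in WT animals. It had 17747, 7349, 18028, 15571 and 20763 bp in inflamed livers and 1879, 26316, 15482, 19115 and 28479 bp in nodules, each in the order given above. The exact permutation p was 0.0794 for inflamed livers against WT, 0.643 for nodules against inflamed livers and 0.127 for nodules against WT. Without nodule 124711 the nodules exceeded WT livers by 13449 bp (exact permutation p = 0.0159), and without inflamed liver 148998 inflamed livers exceeded them by 9128 bp (exact permutation p = 0.0317). With only nodule 123390 left out, the nodules exceeded WT livers by 6799 bp (exact permutation p = 0.238). With only nodule 125278 left out, that excess was 7340 bp (exact permutation p = 0.230). The promoter window had 2372 ± 426 bp in WT animals, against 2640 ± 89.8 bp in inflamed livers and 2538 ± 394 bp in nodules (SD, n = 5 each), at exact permutation p of 0.254, 0.770 and 0.524 in the same order of comparisons.

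Within Abcb1a the peaks lay in the first part of the gene. The regions chr5:8659034-8679059, from the start inward, and chr5:8681080-8688562 had a peak in 15 of 15 and in 13 of 15 animals. Farther in, the region chr5:8733905-8738192 had a peak in no WT liver, in inflamed liver 148990 and in 4 nodules, with 931 to 4222 bp in the nodules. Its exact permutation p was 0.0476 for nodules against WT and 0.684 after adjustment over all 56941 regions. Ahead of the gene, the region chr5:8647686-8651731 was marked in 2 WT animals, in 5 inflamed livers and in 3 nodules.

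The space between Abcb1b and Abcb4, 23999 bp outside the promoter window, was covered in every animal. WT livers had 7461 ± 3025 bp under peaks, inflamed livers 10541 ± 3035 bp and nodules 13461 ± 8191 bp (SD, n = 5 each), at exact permutation p of 0.119 for inflamed livers against WT, 0.508 for nodules against inflamed livers and 0.175 for nodules against WT. Most of it came from the region chr5:8867106-8875136, with a peak in 15 of 15 animals, and from the left part of the region chr5:8876042-8912934, which reaches over the start of Abcb4. In the first of these the best peak held a score of 3100 in 2 WT livers, 5 inflamed livers and 4 nodules, a value shared by 9.52% to 24.5% of the peaks of a list.

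Of the 21 regions of the window, 0 had a peak in all animals of one group and in none of the other, where the whole genome had 5.22% for inflamed livers against WT, 1.38% for nodules against inflamed livers and 0.365% for nodules against WT. Likewise in 0 of 21 did the covered bp of the groups not overlap, against 12.5%, 4.48% and 1.63% of all regions. The exact permutation test gave 2, 0 and 1 of the 21 an unadjusted p under 0.05, against 24.5%, 12.2% and 6.97% of all regions, and 0 after Benjamini-Hochberg adjustment over all regions, as in the whole genome. The region over the start of Abcb1b met the first rule once WT animal 130748 was left out.

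The merged regions were long, since the peaks of nodules 125278 and 123390 joined neighbouring ones. After the values had been seen, the window was also cut into 15 stretches that at least 5 of the 15 animals had under a peak, out of 39042 in the genome, and the best score percentile over each was compared. These are given as a description. Every inflamed liver was above every WT liver in 3 of 15, where 26.5% of all stretches were so. In 1 of the 3 the separation is between equal scores of 3100, and with scores of 3100 and above counted as tied the number was 2 of 15, where 20% of all stretches were so. Every inflamed liver was below every WT liver in 0 of 15, where 2.68% were. The share of the window is thus no larger than that of the genome under either count. Nodules were above inflamed livers in 0 of 15 (0.707% of all stretches) and below in 0 (5.89%), above WT livers in 1 (1.48%) and below in 0 (1.03%).

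The 3 stretches were the start of Abcb1a and 2 stretches between Abcb1b and Abcb4. The one at chr5:8871283-8875074, 19.8 kb before the rounded start of Abcb4, held the tied score of 3100 in WT animals 130747 and 129297, in all 5 inflamed livers and in 4 nodules. Its percentiles differ among these animals only through the make-up of their lists, and it is not read as higher in inflamed livers.

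The other stretch, chr5:8876136-8878882, lies 15.5 kb before the rounded start of Abcb4. Its percentile was 4.64, 18.9, 27.2, 17.1 and 0 in WT livers, where 0 stands for no peak, and 69.2, 73.0, 70.4, 66.4 and 80.7 in inflamed livers, in the order given above. Nodules had 0, 84.8, 70.7, 77.1 and 51.4, so that 4 were above all WT livers and nodule 124711 had no peak. It was the only stretch of the 3 that stayed apart between WT and inflamed livers among equal lists, with 0 to 16.5 in WT livers and 50.5 to 73.7 in inflamed livers. In nodule 123390 a single broad peak covered this stretch and its neighbour, and their scores are 1 value there.

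**Figure D4:**
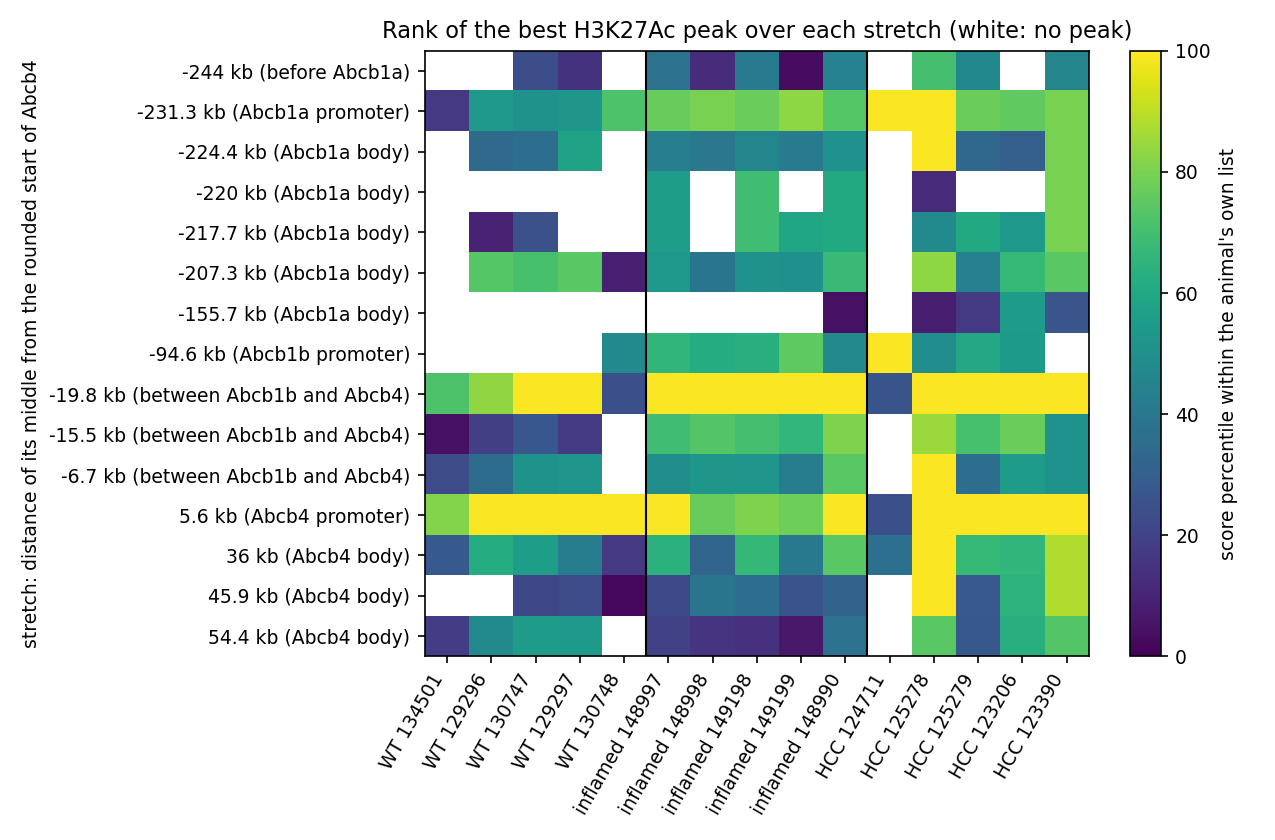
Score percentile (0 to 100, within each animal's own list) of the best H3K27Ac peak over each of the 15 stretches (rows, by the distance of their middle from the rounded start of Abcb4 in kb) in each animal (columns); white means no peak. The row at -15.5 kb is dark or white in WT livers and bright in inflamed livers, and the row of the Abcb1b promoter is white in 4 WT livers.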

How the data were processed

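Liver tissue of 15 mice was profiled by H3K27Ac ChIP-seq as single-end reads, and the submitters' processing notes name Bowtie 0.12.7, MACS 1.4 and mm9. The authors called peaks in each animal separately and deposited their positions and MACS score, from 50 to 3233.06. Which control was used is not given in the sources used here. Scores were ranked only within a list. Depth is unknown, and no interval for counting error can be given.

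Spans were taken as rounded positions. Peaks on chromosomes 1 to 19 and X entered. Named were the 3 genes, their promoter windows and every merged region in at least 2 animals. Groups were compared by exact two-sided permutation of the difference of means (252 assignments), with Benjamini-Hochberg adjustment over all merged regions or over all tiles and loci. A region was called by presence with a peak of at least 1 bp in all 5 animals of one group and 0 of the other. The members, lists and tests were chosen with earlier results of these data known, and the gap, the 15 stretches and their minimum of 5 animals after the values were seen. Replicate numbers name animals and pair nothing.

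Alternatives were the top 50% of peaks, equal lists, other spans, the number of peaks, other call rules and leaving out animals. The region test was checked on simulated data. Lists of other transporters and of cell type markers were planned and not analysed here, since an annotation of mm9 was not used. Sequences were matched by symbol. Python 3.11.15, NumPy 2.4.6, SciPy 1.17.1 and matplotlib 3.10.9 were used.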

Additional observations from a re-analysis of the deposited data

Results flagged for a closer look

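Within groups of 5 animals, 9 of 48 sets of values held an animal whose distance from its nearest neighbour passed Dixon's 95% limit. Chance flags about 1 in 20 sets, but 4 of the 9 sets hold 4 values of 0 and 1 other value, which pass by construction, and 3 of these rest on the same Abcb1b peak. At Abcb1b, WT animal 130748 stood alone, with 1663 bp under peaks at the locus, 1663 bp in the promoter window and a score percentile of 47.8, where the other 4 WT livers had no peak. The same animal had the shortest length under peaks between Abcb1b and Abcb4 among WT livers, 2080 bp.

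Inflamed liver 148990 had the longest length between Abcb1b and Abcb4 in its group, 15764 bp. At the Abcb4 start, WT animal 134501 had a score percentile of 81.5 and HCC animal 124711 one of 20.7, both below the rest of their groups. The score of WT animal 134501 was 3038.97, close to the tied 3100 of the other WT livers. HCC animal 123390 had its peak begin 16903 bp before the rounded start of Abcb4, and HCC animal 125278 was the only animal with peaks after the end of Abcb4, covering 4152 bp.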

How the results depend on the processing

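No paired analysis was possible because replicate numbers only name the animals. Of 521 alternative values, 458 kept their direction and side of the threshold, and these include every alternative of the gap at the Abcb4 start and of the excess at the Abcb1b locus of inflamed over WT livers. For the gap this could not come out otherwise where peaks or animals were only removed. The cause of the changes below was not tested. Differences are in bp, the first group minus the second.

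Without WT 130748 and HCC 124711 together, the differences were -407 (Abcb4 locus, inflamed against WT), 18899.2 (Abcb4 locus, HCC against inflamed), 12085.2 (Abcb1a locus, HCC against WT), 87.65 and -345.25 (Abcb4 promoter, HCC against inflamed and against WT) and 62.75 (Abcb1a promoter, HCC against inflamed). The Abcb4 promoter percentile was then 12.5 points higher in HCC than in inflamed livers and 4.54 points higher than in WT, with the tied score of 3100 in every nodule left. The same setting gave 1 region marked in all inflamed and no WT livers, 1 in all HCC and no WT, and 1 (HCC against inflamed) and 6 (HCC against WT) stretches whose percentiles did not overlap.

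With promoters of 5 kb on each side, Abcb4 gave 798.2 (inflamed against WT), 299 (HCC against inflamed) and 1097.2 (HCC against WT), and Abcb1a 1573 (inflamed against WT). The Abcb4 locus gave 2.2 more peaks in inflamed livers than in WT when peaks were counted. At the Abcb1b locus the top 50% of peaks gave 63.8 for HCC relative to inflamed livers. Relative to WT, a share of all bp under peaks gave 14.0 ppm and 10 kb on each side gave 4218. Equal lists put the Abcb4 promoter percentile 2.80 points higher in HCC than in inflamed livers, and left 1 stretch apart between inflamed and WT livers and 0 between nodules and WT. With at least 4 of 5 against at most 1 of 5 animals, 1 region was called for inflamed over WT, 1 for HCC over inflamed and 2 for HCC over WT.

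Leaving out 1 animal gave ranges of -407 to 4601 (inflamed against WT), 5893.5 to 18899.2 (HCC against inflamed) and 9096.7 to 22102.5 (HCC against WT) at the Abcb4 locus. At the Abcb1a locus they were 5254.6 to 9128.45, -193.6 to 6456.4 and 6799.2 to 13449.2 in the same order, and at the Abcb1b locus 1605.15 to 2696.65 for HCC against WT. At the Abcb4 promoter they were -432.9 to -256.9, -70.6 to 87.65 and -452.7 to -242.55. At the Abcb1a promoter they were 161.75 to 417 for inflamed livers relative to WT, then -192.75 to 62.75 for HCC relative to inflamed livers, and at the Abcb1b promoter 863.9 to 1444.4 for HCC against WT. The Abcb4 promoter percentile ranged from -7.18 to 12.5 points in nodules relative to inflamed livers and from -16.0 to 3.66 relative to WT. Counts of regions marked in all of one group and none of the other reached 1 for inflamed over WT and for HCC over WT. Regions without overlap ranged from 0 to 2, 0 to 1 and 0 to 3 in the order of comparisons, and stretches without overlap from 3 to 5, 0 to 1 and 1 to 6.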
